A study of Mus musculus and Homo sapiens with 14 samples.

Results

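The 8 genes Erich2, Atp13a4, Atp13a5, Glyat, Sp9, Grik3, Zfp462 and Adgrl3 were chosen by symbol from an RNA sequencing series because of large rises in EL4 tumours labelled P3 over those labelled P0. They are 8 of 50559 gene entries in the tumour table and 8 of 55969 in the table of cultured EG7-OVA cells. Since tumour values chose them, their P0 and P3 levels are given as a description, with no test, and the tests concern the drugs in culture. Of the 8 genes 7 were higher in P3, which their choice on these values fixed in advance. Atp13a5 had 1 read in the P0 libraries together and 1 in the P3 libraries together, so it was not higher in P3, and it is described here as the neighbour and family member of Atp13a4.

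EL4 is a mouse T-cell lymphoma line, and EG7-OVA is a derivative of EL4 that expresses ovalbumin. The tumours labelled P0 and P3 and the cultured EG7-OVA cells were all labelled wild type, with 2 libraries of total RNA per group. The labels do not say what P0 and P3 stand for, which mice carried the tumours or how many animals were used. Cultured EG7-OVA cells received 3 doses, at 0, 24 and 48 h, of 1.5 µM azacytidine, of 0.2 µM decitabine, or of the solvent DMSO alone, and were harvested at 72 h. The series holds 14 libraries, and the 4 NKYS libraries were not used here. Whether replicates came from separate animals or cultures is not stated, so p-values measure only the spread between these libraries, which may be technical.

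The drugs are nucleoside analogues, azacytidine of cytidine and decitabine of deoxycytidine. Built into DNA, they trap the DNA methyltransferases, so that cytosine methylation at CG dinucleotides is lost as cells divide, and genes silenced by methylation near their start can be transcribed again. Most of the 8 genes are known from tissues other than T cells. Atp13a4 and Atp13a5 encode P5-type transport ATPases of intracellular membranes, Grik3 a kainate-type glutamate receptor subunit, and Adgrl3 (latrophilin 3) an adhesion receptor that binds FLRT and teneurin proteins. Glyat encodes a mitochondrial enzyme of liver and kidney that joins glycine to acyl groups. Sp9 encodes a zinc-finger transcription factor of interneuron and limb development, and Zfp462 encodes a zinc-finger protein that works with H3K9 methyltransferases. Erich2 encodes a glutamate-rich protein.

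In culture Atp13a5, Grik3, Adgrl3 and Zfp462, 4 of the 8 genes, were higher with each drug. Of these, Atp13a5 was not among the genes higher in P3. Erich2 and Glyat had too few reads to be tested in culture. Of all genes tested, 13.6% were higher with azacytidine, 12.4% with decitabine and 10.2% with both. Atp13a5, Grik3 and Adgrl3 had enough reads to be tested only through the drug-treated groups, so these shares are not support for a common response. The Zfp462 call lay at the threshold. Erich2 and Glyat stayed at or near no reads, and Atp13a4 was not higher with either drug. Grik3, absent or nearly so in P0 tumours and in DMSO-treated cells, reached a mean of 35.7 CPM (counts per 1000000 counts of the library) with azacytidine and 11.8 CPM with decitabine. Erich2, the gene with the largest fitted rise in P3, had no read in any of the 6 EG7-OVA libraries. Atp13a4 and Atp13a5 lie in tandem on chromosome 16 and differed in pattern. Atp13a4 was high in P3 tumours and was called lower with azacytidine, a call lost without azacytidine replicate 1 or DMSO replicate 1. With decitabine Atp13a4 did not pass. Atp13a5 was nearly silent in both tumour groups and rose with both drugs.

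Because both drugs act on CG methylation, the stretches around the starts of 5 of the genes are shown, with each CG in capitals. Each runs 5′ to 3′ on the gene's strand, from 250 bases before to 50 bases after the start, as listed by RefSeq for GRCm38.p6. Erich2 and Glyat are the genes that stayed at or near no reads in culture, Atp13a4 and Atp13a5 are the contrasting neighbours, and Grik3 was high in P3 and with both drugs. For Atp13a4 the RefSeq start that coincides with the annotated start of the gene is given.
Erich2, chr2:70508569-70508868, plus strand: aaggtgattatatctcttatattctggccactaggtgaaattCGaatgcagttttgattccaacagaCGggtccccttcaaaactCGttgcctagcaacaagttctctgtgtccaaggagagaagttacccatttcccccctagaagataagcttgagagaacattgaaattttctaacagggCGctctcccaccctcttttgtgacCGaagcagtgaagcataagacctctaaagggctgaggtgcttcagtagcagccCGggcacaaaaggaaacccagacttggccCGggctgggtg
Atp13a4, chr16:29544815-29545114, minus strand: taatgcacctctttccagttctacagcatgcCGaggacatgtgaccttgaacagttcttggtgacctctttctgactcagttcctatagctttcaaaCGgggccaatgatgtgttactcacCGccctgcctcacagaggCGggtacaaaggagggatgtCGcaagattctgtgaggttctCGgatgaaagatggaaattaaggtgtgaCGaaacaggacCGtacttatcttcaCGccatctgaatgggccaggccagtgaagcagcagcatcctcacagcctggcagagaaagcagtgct
Atp13a5, chr16:29378683-29378982, minus strand: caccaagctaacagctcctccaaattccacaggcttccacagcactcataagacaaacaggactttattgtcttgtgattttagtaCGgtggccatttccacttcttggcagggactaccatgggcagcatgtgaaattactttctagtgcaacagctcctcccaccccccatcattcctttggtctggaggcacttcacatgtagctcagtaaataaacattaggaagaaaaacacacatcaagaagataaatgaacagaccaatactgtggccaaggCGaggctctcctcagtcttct
Glyat, chr19:12633058-12633357, plus strand: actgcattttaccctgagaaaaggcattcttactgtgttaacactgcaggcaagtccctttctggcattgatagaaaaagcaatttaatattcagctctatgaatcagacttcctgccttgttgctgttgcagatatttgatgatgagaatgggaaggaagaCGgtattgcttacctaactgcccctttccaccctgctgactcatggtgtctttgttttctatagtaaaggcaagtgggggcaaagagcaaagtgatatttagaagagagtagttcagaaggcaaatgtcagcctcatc
Grik3, chr4:125490446-125490745, plus strand: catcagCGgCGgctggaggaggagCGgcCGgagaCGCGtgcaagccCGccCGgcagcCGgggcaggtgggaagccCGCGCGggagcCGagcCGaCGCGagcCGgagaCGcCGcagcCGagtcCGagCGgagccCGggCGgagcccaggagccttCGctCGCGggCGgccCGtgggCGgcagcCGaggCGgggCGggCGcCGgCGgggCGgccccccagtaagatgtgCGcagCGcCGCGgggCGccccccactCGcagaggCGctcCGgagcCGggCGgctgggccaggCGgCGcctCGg

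The Glyat and Atp13a5 windows are poor in CG, and the Grik3 window is among the richest. The Glyat window holds 1 CG and the Atp13a5 window 2, and 85.9% and 76.7% of the 32851 RefSeq mouse promoters of this length hold more. The Erich2 window holds 7, which is the median of all promoters (quartiles 3 and 20), and the Atp13a4 window holds 9, or 8 at its other listed start. The Grik3 window holds 50 CG, and 0.7% of promoters hold more. Sp9 holds 25, and the 3 listed starts of Adgrl3 hold 40, 21 and 20. Zfp462 had no entry, so 7 of the 8 genes were matched. The genes raised by the drugs thus included the CG-poor Atp13a5 and the CG-rich Grik3 and Adgrl3.

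**Figure D1:**
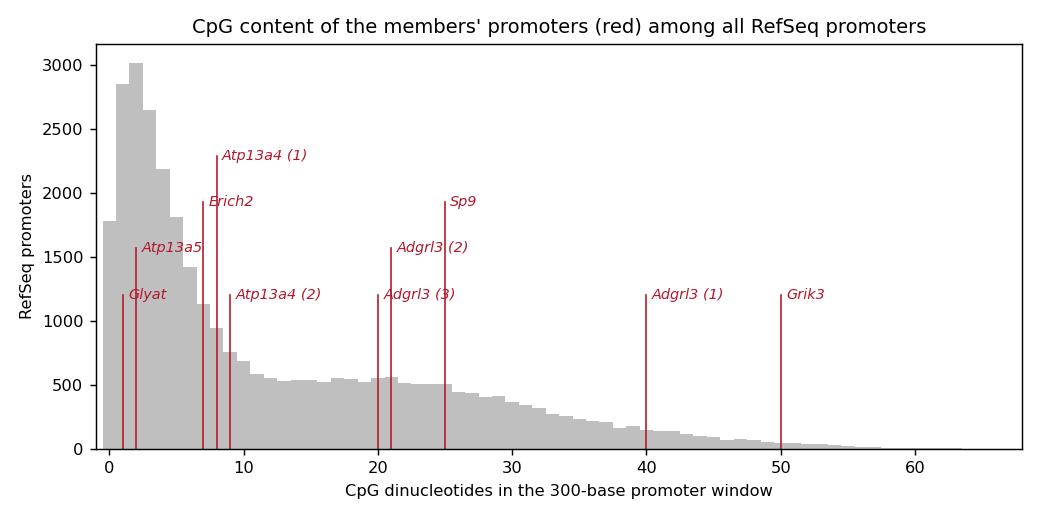
Number of CG dinucleotides in the RefSeq promoter window of each gene (red lines, with the listed start in parentheses where a gene has several) over the histogram of all 32851 windows of the same length. Glyat (1) and Atp13a5 (2) lie at the low end, Erich2 (7) at the median, and Grik3 (50) in the upper tail.

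A GC box, searched as GGGCGG on both strands, was found 7 times in the Grik3 window, 2 times in each of the first 2 Adgrl3 windows, and once in the third. It was also found once in the Sp9 window and once in the Atp13a4 window shown, and it occurs in 35.7% of all promoters. The Erich2, Glyat and Atp13a5 windows held none. The letters TATAAA (13.6% of promoters, both strands) were found only at the second start of Adgrl3. The letters CCAAT (37.4%, both strands) were found 2 times in Sp9 and once each in Atp13a4 and Atp13a5. None of the 3 motifs contains another, each GC box holds a CG counted above, and a match is a description of the sequence and not of binding.

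The genes lie on 5 chromosomes, in mm10 coordinates from GENCODE vM21, and all 8 are protein-coding. Erich2 spans chr2:70508819-70540884 and Sp9 chr2:73271925-73284706, both on the plus strand with starts 2763.1 kb apart. Atp13a4 (chr16:29395853-29544864) and Atp13a5 (chr16:29231851-29378732) are both on the minus strand, with 17.1 kb between them and starts 166.1 kb apart. Glyat spans chr19:12633308-12653911 and Adgrl3 chr5:81020138-81825133, both on the plus strand. Grik3 (chr4:125490700-125714173) and Zfp462 (chr4:54945048-55083563) share chromosome 4 and the plus strand with starts 70545.7 kb apart.

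Total counts were 21621580 to 25328708 per tumour library and 15690749 to 21048978 per EG7-OVA library, and replicates correlated across genes at r = 0.969 to 0.991. Below, CPM is scaled by TMM within each table. The tumour and culture tables were normalised separately, and they may differ in gene annotation, so levels set across them, as in the search for genes of like level, are descriptive. T-cell markers were expressed in every library (8 of 10 listed markers in the tumours, all 10 in culture). The other markers, Trbc1 and Trbc2, and the B-cell marker Ighm were listed at 0 in the 4 tumour libraries and had reads in every EG7-OVA library, so a 0 in the tumour table may not mean absence of the RNA. Markers of other cell types also differed between the tumour groups. The summed CPM of 8 B-cell markers was 191 and 367 in P0 against 28.4 and 28.6 in P3, and all 7 tested fell (median log2 -5.43). That of 8 dendritic-cell markers was 175 and 200 against 46.8 and 48.2, with 6 of 8 lower and none at 0. Fibroblast markers summed to 2985 and 3061 in P0 and 1689 and 1030 in P3, with 3 of 8 lower and 1 higher. The summed CPM of 10 macrophage markers was 1348 and 1672 in P0 against 344 and 337 in P3, and that of 13 neural markers was 156 and 147 against 83.4 and 80.6, with Snap25 and Gad2 at 0 in all 4 libraries. The sum of 8 neutrophil markers was 4.64 and 5.41 in P0 against 15.9 and 64.6 in P3, with none at 0. The sum of 8 skeletal muscle markers was 573 in P3 replicate 1, 1.14 in P3 replicate 2, and 10.9 and 8.16 in P0. Of 8 hepatocyte and kidney tubule markers, 4 were at 0 in each P0 library and in P3 replicate 1, and 7 in P3 replicate 2. Endothelial markers (235 and 238 in P0, 246 and 164 in P3) did not pass in any of 8. In culture, 4 of 4 epithelial markers tested were higher with each drug (sums 0.251 and 0.299 with DMSO, 26.5 and 11.5 with azacytidine, 19.6 and 23.4 with decitabine), as were 5 of 7 macrophage and 3 of 4 fibroblast markers. Each DMSO library held reads of only 2 of the 8 listed epithelial markers, and neither held any of the fibroblast marker Col1a2. The epithelial markers and Col1a2 thus had enough reads to be tested only through the drug-treated groups. These marker counts are therefore not support for a common response. The shares higher over all genes tested were 13.6% with azacytidine and 12.4% with decitabine. C1qa, C1qb, C1qc, Col3a1 and Dcn were at 0 in all 6 EG7-OVA libraries. The part of these differences in the levels of the 8 genes was not tested. In these bulk samples a change in the number of cells of a type and a change in RNA per cell cannot be told apart.

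Erich2 had no read in either P0 library, and 450 and 372 reads in P3 replicates 1 and 2 (19.9 and 16.3 CPM, mean 18.1 ± 2.53 SD, n = 2). Its groups did not overlap, as for 76.1% of the genes tested. Against the limit of 3 counts over the P0 group, P3 was at least 279-fold higher, and its fitted log2 difference ranked 1 among the 19993 genes tested. With no read in P0 this rank depends on the prior count of the fit, and the gene was chosen on these values. In EG7-OVA cells Erich2 had 0 reads in all 6 libraries, which allows up to 0.0751 CPM with DMSO, 0.0935 CPM with azacytidine and 0.0791 CPM with decitabine. No response to the drugs was therefore detectable at this depth, and no fold is given. Of the 36982 symbols present in both tables, 3 had at least 1 CPM in each P3 library and no read in any other library, and Erich2 was the highest of them. Erich2 lies within Gad1os, an annotated RNA on the opposite strand, and strandedness of the counting is not given in the sources used here. Gad1os had 1 and 0 reads in P0 and 20 and 23 in P3, far fewer than Erich2, and none in EG7-OVA cells.

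Glyat followed a like course. It had 0 and 2 reads in P0 and 228 and 441 reads in P3 (10.1 and 19.4 CPM), a ratio of 341 with a 95% counting interval of 94 to 2820. The P3 replicates differed 1.92-fold from each other, and neither overlapped the P0 libraries. In culture Glyat had no read in the DMSO libraries, 1 and 0 reads with azacytidine, and 3 and 1 with decitabine. It was too low to be tested there. The decitabine level was at least 1.41-fold above DMSO by the 3-count limit, a margin resting on 4 reads.

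Atp13a4 had no read in P0 and 240 and 360 reads in P3 (10.6 and 15.8 CPM), at least 204-fold higher, the second largest fitted rise among all genes tested. As for Erich2, that place depends on the prior count of the fit. DMSO-treated EG7-OVA cells already expressed Atp13a4, at 2.71 and 1.35 CPM. The level was 0.261 and 0.417 CPM with azacytidine and 1.02 and 1.15 CPM with decitabine, each below both DMSO libraries. By edgeR's quasi-likelihood test over all 19123 genes of the table, Atp13a4 fell with azacytidine (log2 fold change -2.55 ± 0.58 SE, adjusted p = 0.012). The decitabine value was -0.90 ± 0.50 (adjusted p = 0.27), with a 95% interval of -2.03 to 0.22. The azacytidine call was lost without azacytidine replicate 1 (-2.30, adjusted p = 0.0909) or DMSO replicate 1 (-1.98, adjusted p = 0.0781).

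Atp13a5, 17.1 kb away on the same strand, showed a different pattern. In the tumours it had 0 and 1 reads in P0 and 0 and 1 in P3, and it had none with DMSO. With azacytidine it had 167 and 469 reads (10.9 and 28.0 CPM), and with decitabine 126 and 238 (6.42 and 13.0 CPM). Both drug groups stood apart from DMSO, at least 264-fold higher with azacytidine and at least 128-fold higher with decitabine. The edgeR test gave adjusted p = 0.000163 and adjusted p = 0.000368. The fitted sizes (11.48 ± 1.05 and 10.48 ± 1.08) depend on the prior count of the fit and moved to 10.65 without azacytidine replicate 2 and 9.88 without decitabine replicate 2. Replicates within a drug group differed 2.56-fold and 2.02-fold, and the ranges of the drugs overlapped. Gm15752, a processed pseudogene inside Atp13a5 on the same strand, had no read in the DMSO libraries, 14 and 38 with azacytidine, and 6 and 30 with decitabine, and reads of the 2 may have been split between them.

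Grik3 stood higher in P3 and rose with both drugs. It had 0.189 and 0.239 CPM in P0 and 20.0 and 14.4 CPM in P3, a ratio of 79.6 (95% counting interval 43 to 167). In culture it had 0.452 and 0.199 CPM with DMSO, 39.0 and 32.4 CPM with azacytidine, and 8.06 and 15.6 CPM with decitabine. No drug library overlapped the DMSO libraries. The rise was 6.75 ± 0.48 on the log2 scale with azacytidine (edgeR adjusted p = 2.77e-05) and 5.15 ± 0.47 with decitabine (edgeR adjusted p = 0.000122). Only 9 and 4 reads lie behind the DMSO level, so the sizes moved to 7.41 and 5.83 without DMSO replicate 1 while both calls held.

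Adgrl3 also was higher in P3 and with both drugs. It had 2.70 and 2.87 CPM in P0 and 83.4 and 74.8 CPM in P3, a ratio of 28.4 (23.8 to 34.1). With DMSO it had 1 and 10 reads (0.0503 and 0.498 CPM), against 3.53 and 2.21 CPM with azacytidine and 3.21 and 2.79 CPM with decitabine. Neither drug group overlapped the DMSO libraries. The rise was 3.35 ± 0.70 with azacytidine (edgeR adjusted p = 0.00806) and 3.42 ± 0.70 with decitabine (edgeR adjusted p = 0.00876). Its size rests on the DMSO pair, at 2.48 and 2.56 without DMSO replicate 1 and 5.60 and 5.68 without DMSO replicate 2. The azacytidine call was lost without azacytidine replicate 1 (adjusted p = 0.0584).

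Zfp462 was the most abundant of the genes in every group. It had 5.59 and 5.09 CPM in P0 and 354 and 302 CPM in P3, a ratio of 61.7 (54.4 to 70.3). DMSO-treated EG7-OVA cells already held 135 and 116 CPM, and both drug groups stood above that, at 175 and 182 CPM with azacytidine and 183 and 177 CPM with decitabine. The rise was 0.50 ± 0.16 with azacytidine (edgeR adjusted p = 0.0489) and 0.52 ± 0.16 with decitabine (edgeR adjusted p = 0.0498). These calls lie at the threshold. Leaving out any of the 6 libraries ended both (adjusted p from 0.0867 to 0.28), as did median-ratio scaling (0.06 and 0.0694) and limma-voom (0.051 and 0.0503), whereas DESeq2 kept them (0.0296 and 0.0337).

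Sp9 had 1 and 2 reads in P0 and 124 and 136 in P3 (5.48 and 5.97 CPM), a ratio of 88.3 (29.9 to 431). With DMSO it stood at 0.201 and 1.15 CPM, with azacytidine at 2.81 and 1.31 CPM, and with decitabine at 2.50 and 2.30 CPM. All 4 drug libraries lay above both DMSO libraries, but the DMSO pair differed 5.7-fold. The values did not pass the test, at 1.60 ± 0.68 with azacytidine (edgeR adjusted p = 0.133) and 1.82 ± 0.68 with decitabine (edgeR adjusted p = 0.0992). Without DMSO replicate 2 they were 3.26 and 3.49 and passed (0.00954 and 0.0073). They also passed with no filter on low counts (adjusted p = 0.023 and 0.00681), and with a replicate block after crossing the DMSO numbers, a pairing chosen after seeing the data (adjusted p = 0.0297 and 0.0114). The last 1602 bases of Sp9 overlap Cir1 on the opposite strand. Cir1 differed by 0.26 ± 0.16 in P3 (edgeR adjusted p = 0.245), by 0.12 ± 0.30 with azacytidine and by 0.18 ± 0.30 with decitabine, and did not pass.

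**Figure D2:**
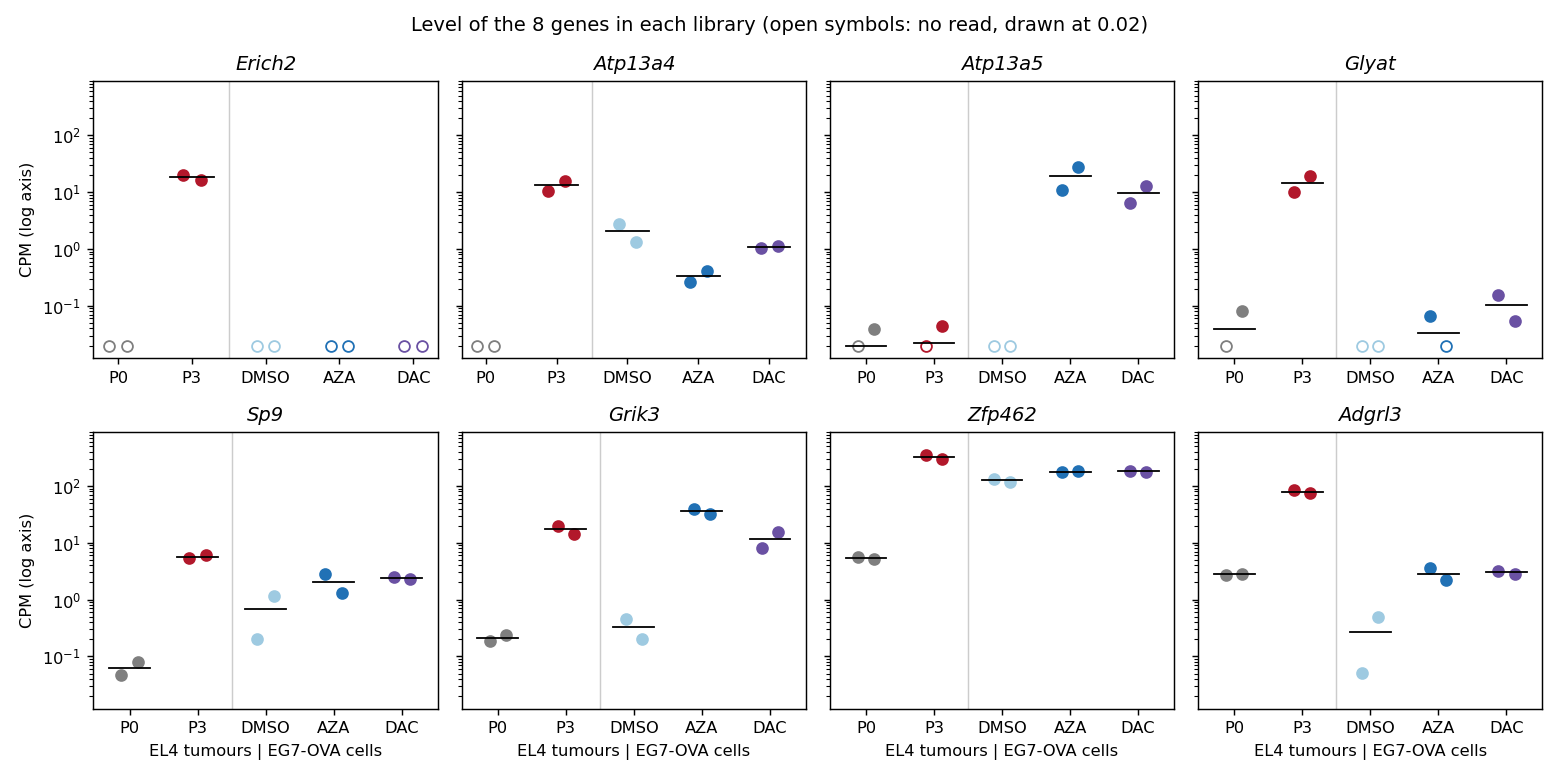
CPM on a log axis of each gene in the 4 EL4 tumour and 6 EG7-OVA libraries (points, with the group mean as a line, open symbols at the bottom for no read). All genes but Atp13a5 stand higher in both P3 libraries than in both P0 libraries. Atp13a5, Grik3, Adgrl3, Zfp462 and Sp9 stand higher in each drug library than in both DMSO libraries, though Sp9 did not pass the test. Groups did not overlap, in either direction, for 76.1% of the genes tested in the tumours, 61.1% with azacytidine and 58.8% with decitabine.

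Per kilobase of annotated exon, mean levels in P3 ran from Zfp462 (30.7 CPM per kb) through Erich2 (6.14), Adgrl3 (4.46), Glyat (3.08), Atp13a4 (2.12) and Grik3 (1.92) to Sp9 (1.14), with Atp13a5 at 0.00471. Glyat, Atp13a4 and Grik3 overlapped in their replicates. In P0 the order was Zfp462 (0.499 CPM per kb), Adgrl3 (0.157), Grik3 (0.0239) and Sp9 (0.0126), with the others lower. With azacytidine Atp13a5 (4.17 CPM per kb) and Grik3 (3.98) came next after Zfp462 (16.7), and their replicates overlapped. With decitabine the same order held, at 16.8 for Zfp462, 2.08 for Atp13a5 and 1.32 for Grik3, the last 2 again overlapping.

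Besides the 4 genes that passed as higher with each drug, Atp13a4 passed as lower with azacytidine. Over all 19123 genes tested, 20.3% passed in either direction with azacytidine and 16.7% with decitabine. Of these genes 6.70% passed as lower with azacytidine and 4.30% with decitabine, and 10.2% passed as higher with both. Groups did not overlap for 61.1% and 58.8% of the genes tested against DMSO. Atp13a5, Grik3 and Adgrl3 had enough reads to be tested only through the drug-treated groups, so the count of genes raised is not set against those shares as support. The 2 drug comparisons share their DMSO libraries and are not independent of each other. Without azacytidine replicate 1 the count of genes higher with azacytidine was 2, Grik3 and Atp13a5.

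**Figure D3:**
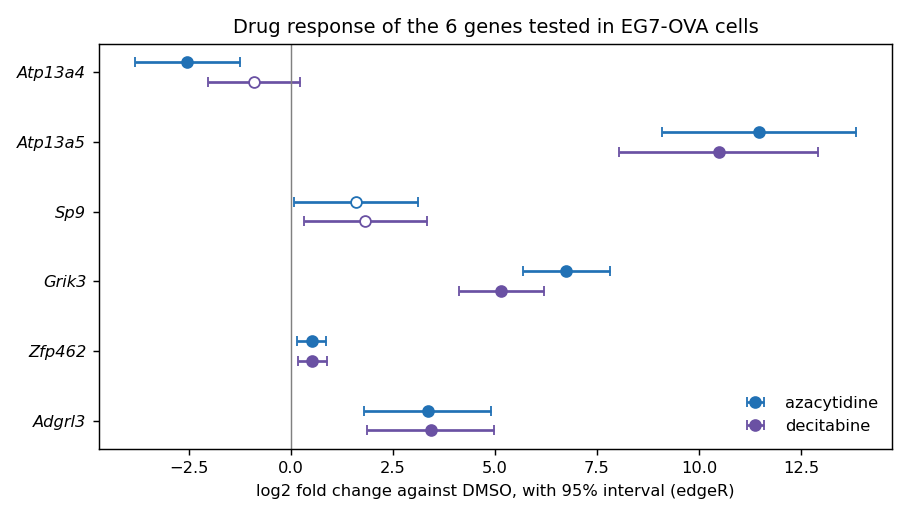
Log2 fold change against DMSO with its 95% interval (edgeR) for the 6 genes with enough reads in EG7-OVA cells, for azacytidine (blue) and decitabine (purple). Filled points passed an adjusted p of 0.05 and open points did not. Atp13a5 had no read with DMSO, so the position of its points depends on the prior count of the fit and is no bound.

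The drugs were given at different doses, so their values are set side by side and their difference is not one at matched dose. Grik3 was 3.04 times as high with azacytidine as with decitabine. Its log2 difference was 1.59 ± 0.34 (95% interval 0.83 to 2.36, edgeR adjusted p = 0.21). The ranges did not overlap, as for 35.0% of the genes tested. Atp13a5 differed by 1.00 ± 0.48 (95% interval -0.09 to 2.09) and Atp13a4 by -1.65 ± 0.59 (-2.96 to -0.33, edgeR adjusted p = 0.614). Intervals for Zfp462 (-0.37 to 0.34), Adgrl3 (-1.36 to 1.22) and Sp9 (-1.64 to 1.19) span 0 and do not show equal responses. By edgeR 0 of 19123 genes (0.00%) passed between the drugs, with 1218 at an unadjusted p under 0.05, while DESeq2 called 175 and limma-voom 0. Grik3 passed in DESeq2 (adjusted p = 0.000914). In edgeR it passed with no filter (adjusted p = 5.81e-05) and with a replicate block after crossing the DMSO numbers (adjusted p = 0.0108). That pairing was chosen after seeing the data. In edgeR it did not pass with median-ratio scaling (0.211), a filter at 1 CPM (0.15) or the block as numbered (0.231). Nor did it pass in limma-voom (adjusted p = 0.143). Without DMSO replicate 2 its log2 difference was 1.59.

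Relatives of the 8 genes, here including genes for partners or ligands and genes of like name, were examined from lists of 3 to 19 further genes. Over all genes tested in the tumours, 18.8% passed as higher and 19.9% as lower in P3, 38.7% in all. All tumour calls given here, markers included, were lost in edgeR without P0 replicate 1 or without P0 replicate 2, when 0 genes of the whole table passed.

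Among the other P5-type ATPases, Atp13a1, of the endoplasmic reticulum, rose slightly in P3 (0.40 ± 0.09, edgeR adjusted p = 0.0205). Atp13a2, a lysosomal polyamine exporter, fell in P3 (-0.82 ± 0.09, adjusted p = 0.00335), with 95.1 and 102 CPM in P0 and 57.4 and 54.8 CPM in P3. With azacytidine Atp13a2 rose from 225 and 177 CPM to 803 and 570 CPM (1.77 ± 0.24, edgeR adjusted p = 0.000812), and with decitabine to 323 and 452 CPM (0.95 ± 0.23, adjusted p = 0.0208). Atp13a3 had 398 and 413 CPM in P0 and 421 and 396 CPM in P3, and did not pass there. It fell with azacytidine (-0.65 ± 0.18, adjusted p = 0.0328), as did Atp13a4. The Atp13a3 call was lost without either azacytidine library or DMSO replicate 1 (-0.51, -0.88 and -0.58), and the Atp13a2 call with decitabine was lost without decitabine replicate 2 (0.66) or DMSO replicate 2 (0.74).

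Of 19 other ionotropic glutamate receptor and auxiliary subunit genes, 9 could be tested in the tumours, of which Grik2, Grik5, Grin1 and Grin2d rose in P3 and Neto2 fell (median log2 0.65, against 0.00 over all genes). Grik2, which encodes another kainate receptor subunit, had 0.142 and 0.239 CPM in P0 and 3.27 and 14.8 CPM in P3 (5.51 ± 0.93, edgeR adjusted p = 0.00948). Its P3 libraries differed far more from each other than those of Grik3. In culture Grik2 had at most 5 reads in any library and was not tested. Grik5, a high-affinity kainate subunit, was expressed throughout, and rose in P3 (0.65 ± 0.11, adjusted p = 0.00902) and with azacytidine (0.96 ± 0.21, adjusted p = 0.0111), the latter not without azacytidine replicate 1 (0.82) or DMSO replicate 1 (0.69). Grik4 rose with decitabine, from 0.977 ± 0.395 to 5.30 ± 0.0739 CPM (2.43 ± 0.46, edgeR adjusted p = 0.0061). In culture 7 genes of this list were tested, of which 1 rose with azacytidine (Grik5), 1 with decitabine (Grik4), and none fell. Over all genes tested, 13.6% were higher with azacytidine and 12.4% with decitabine.

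Among 14 latrophilin, teneurin, FLRT and UNC5 genes, the receptor Adgrl1 rose with Adgrl3 in P3, whereas most of the genes for its ligands fell. Of 11 tested in the tumours, 2 rose (Adgrl1 and Unc5a) and 6 fell (Tenm3, Tenm4, Flrt1, Flrt2, Flrt3 and Unc5b), with a median of -1.50. Tenm4, a teneurin ligand of latrophilins, fell from 417 ± 33.7 to 107 ± 19.9 CPM (-1.96 ± 0.16, edgeR adjusted p = 0.00164). Flrt1 fell in P3 (-2.12 ± 0.24, adjusted p = 0.00349) and rose in culture, from 17.6 ± 0.743 CPM with DMSO to 98.7 ± 3.06 CPM with azacytidine and 67.3 ± 22.03 CPM with decitabine (edgeR adjusted p = 0.000115 and 0.000475). Of 5 tested in culture, 3 rose with azacytidine (Adgrl1, Flrt1 and Unc5b) and 2 with decitabine (Flrt1 and Unc5b), and none fell. Over all genes tested, 13.6% were higher with azacytidine and 12.4% with decitabine. Unc5b, with 0 and 2 reads with DMSO, had enough reads to be tested only through the drug-treated groups. These counts are therefore not support for a common response. The Adgrl1 call was lost without azacytidine replicate 1 (0.84).

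Of the 8 other Sp factors, 6 were tested in the tumours. Sp2 (0.57 ± 0.13, edgeR adjusted p = 0.0232) and Sp4 (0.49 ± 0.09, adjusted p = 0.0118) rose slightly in P3, and Sp7, a factor of bone formation, fell (-2.55 ± 0.58, adjusted p = 0.022). Sp6 rose with both drugs, and had enough reads to be tested only through the drug-treated groups. It went from 1 read in the DMSO libraries together to 40 reads with azacytidine (5.31 ± 1.02) and 18 with decitabine (3.93 ± 1.11). These calls were lost without azacytidine replicate 1 (4.81 and 3.92), and the decitabine call also without azacytidine replicate 2, decitabine replicate 2 or DMSO replicate 1 (3.92, 3.28 and 3.08). The glutamate-rich ERICH genes were listed by their shared name. Of these, Erich1 (-1.05 ± 0.13, edgeR adjusted p = 0.00385) and Erich3 (31 reads in P0 and 0 in P3) fell in P3. Both went opposite to Erich2. Of 7 genes in the glycine N-acyltransferase list, 1 was tested in each table and did not pass.

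The H3K9 methylation genes listed with Zfp462 did not rise with it, apart from Zfp644. Of 11 tested in the tumours, Zfp644, a zinc-finger partner of the G9a complex, rose (0.65 ± 0.11, edgeR adjusted p = 0.00924). Trim28, the KAP1 corepressor, fell from 464 ± 38.9 to 260 ± 23.4 CPM (-0.84 ± 0.12, adjusted p = 0.00621), and Suv39h1, Cbx3 and Cbx5 fell too. In culture Suv39h1, an H3K9 methyltransferase, fell with azacytidine (-0.73 ± 0.17, adjusted p = 0.0135) and decitabine (-0.68 ± 0.17, adjusted p = 0.0211). Cbx5, which encodes the heterochromatin protein HP1 alpha, fell by similar sizes (-0.78 ± 0.18 and -0.75 ± 0.18). None of the 11 rose with either drug. In culture all calls on Suv39h1 and Cbx5 were lost without DMSO replicate 1 (-0.64 and -0.66 with azacytidine, -0.58 and -0.62 with decitabine) or decitabine replicate 2 for the decitabine values (-0.59 and -0.68). Those with azacytidine were lost without either azacytidine library (-0.75 and -0.79 for Suv39h1, -0.71 and -0.93 for Cbx5), and that of Cbx5 with decitabine without decitabine replicate 1 (-0.89).

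Most genes near the members did not pass the test. Of 134 other genes starting within 500 kb of a member's start, 36 were tested in the tumours, of which 7 were higher and 4 lower in P3, with a median log2 difference of 0.16, where 18.8% of all genes tested were higher and 19.9% lower. With azacytidine 38 were tested, 5 higher and 3 lower (median -0.07), and with decitabine 5 higher and 1 lower (median 0.02). Over all genes tested, 13.6% were higher and 6.70% lower with azacytidine, and 12.4% higher and 4.30% lower with decitabine. Neighbours with no read with DMSO could be tested only where a drug raised them. The medians over all genes were 0.00, 0.03 and 0.04. Leaving out 1 library gave 0 to 11 higher and 0 to 7 lower in the tumours, 2 to 5 higher and 0 to 4 lower with azacytidine, and 1 to 3 higher and 0 to 2 lower with decitabine. Within 1000 kb the counts were 15 higher and 14 lower of 98 in the tumours, 9 and 10 of 90 with azacytidine, and 7 and 6 of 90 with decitabine.

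Myo3b, a class III myosin gene whose start lies 469.7 kb before that of Erich2, rose in P3 from 1.37 and 0.915 CPM to 13.1 and 13.4 CPM (3.53 ± 0.27, edgeR adjusted p = 0.00143). Like Erich2, it stayed at 4 reads or fewer in every EG7-OVA library. Next to Erich2, Gad1, which encodes a GABA-synthesising enzyme, had 4 and 5 reads in P0 and 15 and 5 in P3. Beside Glyat, the olfactory receptor gene Olfr1442 had 0 reads in P0 and 12 and 11 in P3, while Mpeg1, a macrophage gene, fell (-1.97 ± 0.16, edgeR adjusted p = 0.00175), as did 9 of the 10 macrophage markers. Opa1, a mitochondrial fusion gene 34.5 kb before Atp13a4, had 155 and 149 CPM in P0 and 155 and 142 CPM in P3, and fell with azacytidine (-0.60 ± 0.19, edgeR adjusted p = 0.048). That call was lost without either azacytidine library, DMSO replicate 1 or decitabine replicate 2 (-0.52, -0.76, -0.42 and -0.63). Zc3h12a, an RNase gene 362.9 kb before Grik3, rose with azacytidine from 10.6 and 11.0 CPM to 48.2 and 45.4 CPM (2.12 ± 0.24, adjusted p = 0.000323) and with decitabine to 32.8 and 52.2 CPM. In the tumours it had 17.9 and 18.1 CPM in P0 and 19.0 and 19.2 CPM in P3. The genes lower in P3 were Mpeg1 and Dtx4 near Glyat and Gpr155 and Ola1 near Sp9, and Ola1 was also the gene lower with both drugs. With azacytidine Opa1 and Fam111a were lower too. Those higher with each drug were Zc3h12a, Gm12479 near Zfp462, Gm15752 inside Atp13a5, and Chn1os3 and Chrna1os near Sp9, the last 4 with no read with DMSO.

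**Figure D4:**
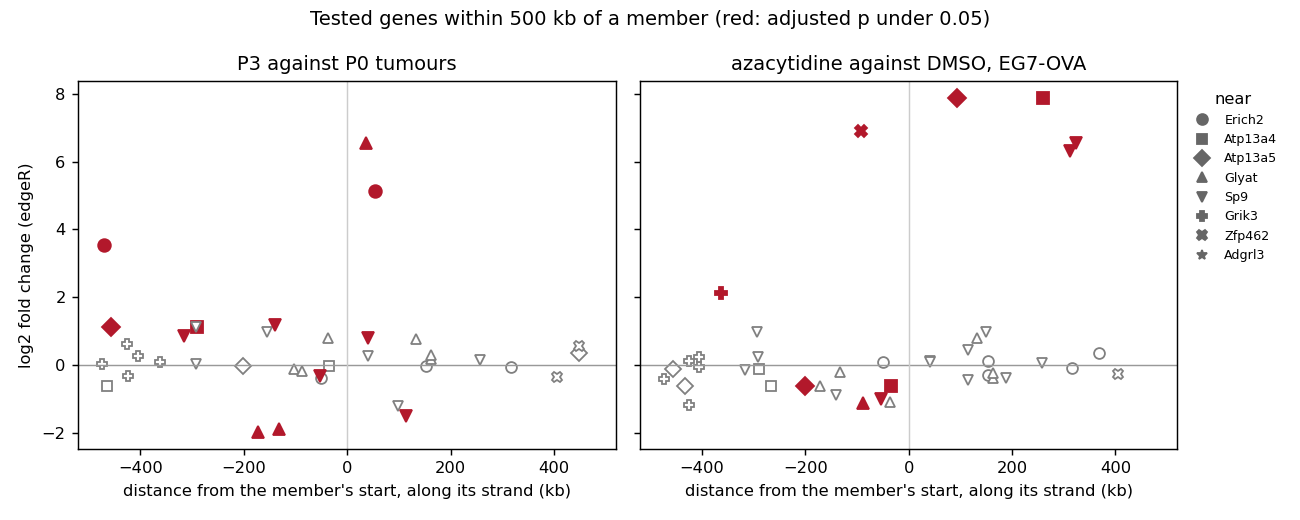
Log2 fold change (edgeR) of the tested genes within 500 kb of a member's start against distance along the member's strand, for P3 against P0 (left) and azacytidine against DMSO (right), with a symbol per member. A gene near 2 members is drawn for each. Red symbols passed an adjusted p of 0.05, 7 genes higher and 4 lower on the left and 5 higher and 3 lower on the right.

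The pattern of near silence in P0 and expression in P3 was shared by other genes. Counting genes with 3 reads or fewer in P0 together and at least 0.5 CPM in each P3 library gave 88, among them Erich2, Atp13a4, Glyat and Sp9. Of the 44 also listed in the EG7-OVA table, 9 had no read in its 6 libraries, as Erich2. Of the 16 with enough reads to be tested there, 6 (37.5%) were higher and 2 lower with azacytidine, and 6 higher and 0 lower with decitabine, where 13.6% and 12.4% of all genes tested were higher. A gene silent with DMSO could be tested only where a drug raised it, so these shares are not support for a common response. At 1 CPM the count of such genes was 39.

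The genes whose levels over the 10 libraries were most like those of a member were found by the root mean square difference in log2(CPM + 1). Erich2 and Glyat shared their nearest gene, Slc27a6, a fatty acid transporter (differences 0.403 and 0.356), with 0.329 CPM in P0, 10.5 in P3, and at most 0.179 in any EG7-OVA group mean. The next were Ifitm10 (0.516) for Erich2 and S100a9, a neutrophil marker, for Glyat (0.376). S100a9 had a mean of 0.203 CPM in P0 and 11.7 in P3. Nearest to Atp13a5 were Nlrp4c (0.303) and Pnma5 (0.308), both near 0 in the tumours and with DMSO. Nlrp4c reached 15.8 CPM with azacytidine and 11.2 with decitabine, and Pnma5 21.3 and 13.8. Sp9 was nearest to Cracd (0.49) and Tnnc1 (0.569), and Adgrl3 to Mmp9 and Ankrd6 (both 0.752). Grik3 (Mir22hg 1.16, Vmn2r97 1.22) and Zfp462 (Faah 1.2, Ccr4 1.25) had no gene as close.

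Over all genes tested with a RefSeq promoter, the share higher with azacytidine was 22.4% at 0 to 4 CG per window, 20.7% at 5 to 14, and 12.5% at 15 or more. With decitabine the shares were 25.1%, 20.2% and 10.1%. Atp13a5 belongs to the first class, and Grik3, Adgrl3 and Sp9 to the last, in which a smaller share of genes was higher. In the tumours the shares higher in P3 were 27.3%, 20.1% and 14.6%. A gene silent with DMSO, or in P0, could be tested only where the other group raised it. The shares of the classes are therefore a description and not support for a link between CG content and response. Methylation itself was not measured here.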

How the data were processed

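Total RNA from 10 of the 14 libraries of the series (4 EL4 tumours, 6 EG7-OVA cultures) was analysed. The authors deposited raw counts per gene for the EL4 tumours. The EG7 table as deposited by the authors was handled like a table of estimated counts (expected counts), because 145 values in 62 rows were not whole. These were rounded, and their making is not stated. Per the submitters' processing notes, fastp, Trim Galore, STAR and featureCounts were used with builds mm10 and GRCh38. The tools' versions, the strandedness and the annotation, not given in the sources used here, can move the counts of overlapping genes.

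Each table was fitted separately in edgeR 4.0.16 (R 4.3.3) with filterByExpr, TMM scaling and 1 mean per group, the 6 EG7 libraries together. The test was edgeR's quasi-likelihood F test (two-sided), p-values were adjusted by Benjamini-Hochberg over all genes tested, and calls were made at an adjusted p of 0.05. There were 19993 genes tested in EL4 and 19123 in EG7. CPM uses TMM library sizes, and the count limit is 3 counts over the group. Ratios have exact binomial 95% intervals, which cover counting error only. Gene positions came from GENCODE vM21, matched by symbol, and promoters from RefSeq. The pipeline was tested on simulated data.

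The members and lists were chosen with earlier results of these data known. Named besides the 8 members were up to 3 called genes per family list and comparison, any count of 5 or fewer, up to 2 called neighbours per member, and the 2 genes of closest level, which for Atp13a4 are not reported here. Neto2, Grin1, Tenm3, Flrt2, Flrt3, Unc5a, Cbx3, Gad1, Dtx4 and Ola1 were partly named outside this rule, after their values were seen. Other settings tried were DESeq2 1.42.0, limma-voom 3.58.1, median-ratio scaling, no filter, a filter at 1 CPM, a block for the replicate number, a minimum absolute log2 change of 1, a fit of the 4 libraries compared alone, and leaving out each library. A block with the DMSO numbers crossed was added after seeing the data. The difference between replicates 1 and 2 was correlated across genes between groups, at r = -0.037 for P0 and P3. In EG7 it was 0.273 between the drugs, and against DMSO -0.257 for azacytidine and -0.191 for decitabine. Titles and library names number the DMSO samples differently, so whether the numbers pair libraries is not settled.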

Additional observations from a re-analysis of the deposited data

How the results depend on the processing

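Depth limits Erich2 and Glyat in culture, and Sp9, Adgrl3 and Grik3 with DMSO, where a few reads set the size of each fold. With 2 libraries per group, leaving out a library assumes that its lone partner varies as the remaining groups do. The cause of the following shifts was not tested. The 7736 genes called in the tumours became 4239 with an absolute log2 fold change above 1, and 0 to 11286 when 1 library was left out (0 without either P0 library). The 3883 genes called with azacytidine ranged from 1675 to 3897 with 1 library left out and the 3198 with decitabine from 1520 to 3290, and with no filter they were 5289 and 4479. Members higher with azacytidine numbered 2 to 4, with the low value without azacytidine replicate 1. Those higher with decitabine numbered 3 or 4 under every alternative. Between the drugs the count of 0 became 175 with DESeq2, 378 with no filter, and 0 to 88 with 1 library left out. Members higher there became 1 with DESeq2, 1 with no filter, and 0 to 1 with 1 library left out, this gene being Grik3. The count of genes near silent in P0 and expressed in P3 was 88, or 39 at 1 CPM.

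Small differences between the drugs changed sign. The Zfp462 value of -0.02 became 0.00 with median-ratio size factors and with DESeq2, and ran from -0.06 to 0.02 with 1 library left out (0.01 without azacytidine replicate 1, 0.02 without decitabine replicate 1). That of Adgrl3 (-0.07) ran from -0.45 to 0.22, positive without azacytidine replicate 2 (0.22) or decitabine replicate 1 (0.05). That of Sp9 (-0.22) ran from -0.88 to 0.21, positive without azacytidine replicate 2.

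With a replicate block, 5490 genes were called in the tumours, 3609 with azacytidine, 2954 with decitabine and 0 between the drugs. The block ended the Zfp462 calls (0.51 and 0.52, adjusted p = 0.0678 and 0.0693). It left 6 of 10 relatives and 4 of 7 neighbours higher in P3, and 3 of 5 neighbours higher with decitabine. Libraries with the same number deviated apart between DMSO and each drug, and with the DMSO numbers crossed the replicate block gave 4576, 3922 and, between the drugs, 167 calls, with 1 member higher. Under it 4 members were higher with each drug, with Sp9 in place of Zfp462.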
